A study of Mus musculus with 6 samples.

Results

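Olfactory receptors are G protein-coupled receptors of the nose, and in the mouse they form a very large gene family that lies in clusters on most chromosomes. In an olfactory sensory neuron a bound odorant acts through the receptor on the G protein subunit Gnal, the adenylyl cyclase Adcy3 and a cyclic nucleotide-gated channel. Transcripts of some receptors are also known from testis and sperm. Here the olfactory receptors that gave a signal in mouse testis were described: which of them were detected, where they lie, how their signals varied among mice, and how they compared between Prss55-/- and wt testis. They were selected on their measured values. A probe was included if its gene name was Olfr and a number and if, in at least 1 genotype, the scanner software placed its spot well above background on each of the 3 arrays. Of the 962 olfactory receptor probes on the array, for 916 genes, 191 probes for 185 genes met this rule.

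The mice were 3 Prss55-/- and 3 wt males aged 6 to 8 weeks, all on a mixed 129Sv/C57BL/6 background. Prss55 encodes a serine protease of the testis, and the mutant allele was made by homologous recombination. Total RNA of the whole testis was hybridized with a single dye, 1 array per mouse, so that fewer cells of a type and less RNA per cell cannot be told apart. The labels do not say whether mice of the same number share a litter. The arrays carry 41174 different probes of 60 nucleotides besides the controls, and the share of spots well above background ranged from 69.5% to 72.9% over the 6 arrays. The 3 Prss55-/- arrays were on slide 1, wt replicates 1 and 2 on slide 3 and wt replicate 3 on slide 2, so that slide and genotype cannot be told apart. Levels are given as log2 of the processed signal after quantile normalization, and a difference is Prss55-/- minus wt on that log2 scale. Signals of different probes depend on the probe as well as on the transcript, so they are not set against each other as amounts of RNA. The Prss55 probe read 14.99 ± 0.0843 (SD, n = 3) in Prss55-/- and 15.89 ± 0.12 (SD, n = 3) in wt testis, a difference of -0.90 (limma adjusted p = 0.01). It stayed well above background on all 6 arrays, and which part of the gene was removed in relation to this probe was not determined here.

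The probes that carry the results below are printed here 5′ to 3′ as the array files give them, with positions on build mm9. Each lies within a RefSeq gene model that holds coding sequence alone. The first 5 belong to MOR218, a subfamily of receptors on chromosome 17. Capitals mark the 16 bases that end the Olfr113 probe and begin the Olfr127 probe, the only run of 12 or more bases shared between MOR218 probes.
Olfr113, chr17:37711529-37711588, minus strand: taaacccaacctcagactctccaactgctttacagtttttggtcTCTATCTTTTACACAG
Olfr114, chr17:37726523-37726582, minus strand: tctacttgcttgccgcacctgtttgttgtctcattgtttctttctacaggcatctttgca
Olfr126, chr17:37987671-37987730, plus strand: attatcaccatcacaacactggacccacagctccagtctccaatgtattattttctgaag
Olfr127, chr17:38041315-38041374, plus strand: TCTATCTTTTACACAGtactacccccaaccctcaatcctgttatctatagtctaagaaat
Olfr761, chr17:38089664-38089723, minus strand: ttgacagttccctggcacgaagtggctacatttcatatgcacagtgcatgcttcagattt
The next 3 are the receptors that passed the adjusted test between the genotypes, and the last is the receptor probe with the highest signal.
Olfr508, chr7:115773776-115773835, plus strand: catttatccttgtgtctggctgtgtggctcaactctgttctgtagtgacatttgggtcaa
Olfr1170, chr2:88064668-88064727, minus strand: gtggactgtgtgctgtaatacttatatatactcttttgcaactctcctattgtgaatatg
Olfr1184, chr2:88326931-88326990, plus strand: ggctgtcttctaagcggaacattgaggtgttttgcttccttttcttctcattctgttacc
Olfr571, chr7:110058002-110058061, minus strand: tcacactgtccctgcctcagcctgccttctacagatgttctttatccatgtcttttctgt
The smallest number of edits that turned 1 olfactory receptor probe into that of another receptor gene was 6. Within 12 edits there were 31 such probes, 9 of them among the 191. Cross-hybridization to a receptor transcript outside the printed bases was not tested.

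Olfactory receptors were detected less often than most genes of the array. The rule was met by 19.9% of the olfactory receptor probes and by 69.5% of all probes. A further 137 receptor probes were well above background on 1 to 4 arrays without meeting it, and 634 were above background on no array. The number of receptor probes well above background per array was 246, 208 and 246 in the Prss55-/- testes and 175, 197 and 217 in the wt testes. Between these ranges there was an overlap, since wt replicate 3 had more than Prss55-/- replicate 2. The detected probes comprised 143 that were above background on all 6 arrays, 39 that met the rule through the Prss55-/- arrays alone and 9 that met it through the wt arrays alone. The scanner's less strict flag for a positive and significant signal in place of the background flag would have given 433 probes.

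Most detected receptors were dim. The mean log2 signal of the 191 probes ranged from 4.72 to 11.43 with a median of 6.37, against a median of 9.55 over all 28606 probes tested. It lay under 6 for 73 probes, from 6 to under 8 for 95 and at 8 or more for 23. At the lower edge, the probes just inside the rule were those for Olfr1184 (mean 4.72), Olfr1099 (4.82) and Olfr55 (4.84), each above background in 1 genotype alone. Just outside were Olfr870 (5.65), Olfr469 (5.57), Olfr1284 (5.22) and Olfr967 (5.20), each above background on 2 arrays of both genotypes, so the rule does not separate the probes by mean signal.

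The brightest probe was that for Olfr571, a class I receptor, the class related to the receptors of fish. It read 11.54, 11.55 and 11.39 in Prss55-/- and 11.22, 11.42 and 11.44 in wt testis. The probes next to it on chromosome 7, Olfr569 and Olfr570, were also detected on all 6 arrays. Olfr279 on chromosome 15 read 10.15, 10.23 and 10.18 against 10.12, 10.07 and 10.17, and Olfr744 on chromosome 14 read 9.43, 9.76 and 9.56 against 9.58, 9.58 and 9.62. For Olfr571, Olfr279 and Olfr744 the genotypes overlapped. The differences were 0.13 for Olfr571, 0.07 for Olfr279 and -0.01 for Olfr744 (limma adjusted p = 0.423, 0.519 and 0.953). Of the 10 brightest probes, 6 lie in the cluster on chromosome 17: Olfr112, Olfr114, Olfr124, Olfr126, Olfr127 and Olfr761. Olfr183 on chromosome 16, also among the 10, read 9.86, 8.74 and 8.80 in Prss55-/- and 9.68, 9.78 and 9.62 in wt testis. Its difference was -0.56 (limma adjusted p = 0.361), with Prss55-/- replicate 1 above every wt array and the other two Prss55-/- arrays below them. When replicate 1 was left out it was -0.93 (limma adjusted p = 0.00606). Olfr16, whose product MOR23 is a receptor known from mouse sperm, was above background on no array. Its signals lay between 2.69 and 2.83.

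**Figure D1:**
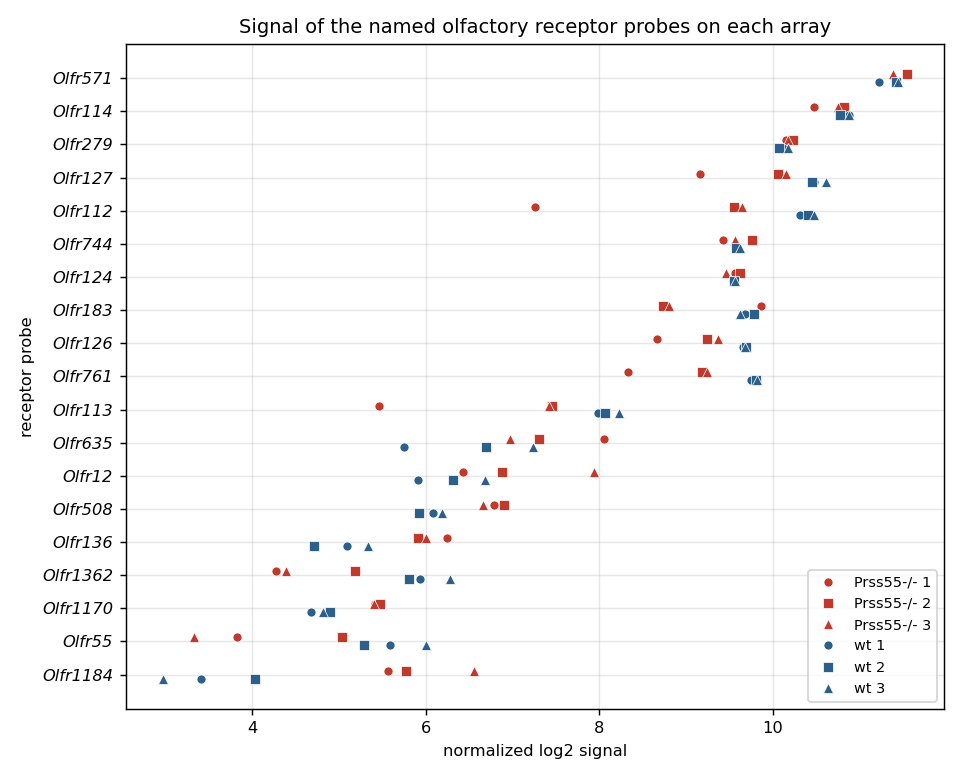
Normalized log2 signal (x axis) of the 19 named olfactory receptor probes that were tested (y axis), with 1 point per array, red for Prss55-/- and blue for wt and a marker shape for each replicate number. Olfr571 lies near 11.43 on all arrays, while Olfr112 spreads from 7.26 in Prss55-/- replicate 1 to 10.48 in wt replicate 3.

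Genes with 2 probes gave a check of the signal. There were 42 such receptor genes. Both probes were detected for 6 of them, 1 probe for 5 and neither for 31. For Olfr1393 the probes read 8.93 to 9.23 and 8.74 to 8.85 over the 6 arrays, and for Olfr166 they read 6.17 to 6.93 and 7.17 to 7.43. In other genes the probes disagreed. One Olfr279 probe lay at 10.07 to 10.23 and the other was above background on 2 arrays only, and for Olfr175-ps1 one probe lay at 9.08 to 9.40 and the other was above background on none. A receptor without a detected probe is therefore not shown to lack a transcript.

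The detected receptors were spread over the genome. The 958 receptor probes with a coordinate formed 49 clusters when a gap of over 1 Mb between neighbouring probes started a new one, and 37 clusters held at least 1 detected probe. Detected probes lay on 16 of the 17 chromosomes that carry receptor probes. Among the 21 clusters of at least 10 probes, the detected share ranged from 8% to 46.7%. The largest cluster, on chromosome 2 from Olfr987 to Olfr1274-ps, had 30 of 187 probes detected (16%). The largest shares were 7 of 15 (46.7%) from Olfr522 to Olfr541 on chromosome 7 and 5 of 11 (45.5%) from Olfr1370 to Olfr1359 on chromosome 13. Of 3 clusters on chromosome 11, 6 of 14, 5 of 12 and 11 of 29 probes were detected. Low shares were found from Olfr338 to Olfr368 on chromosome 2 (2 of 25) and from Olfr763 to Olfr827 on chromosome 10 (4 of 48). These shares are a description of where the rule was met, and no test was made over clusters.

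**Figure D2:**
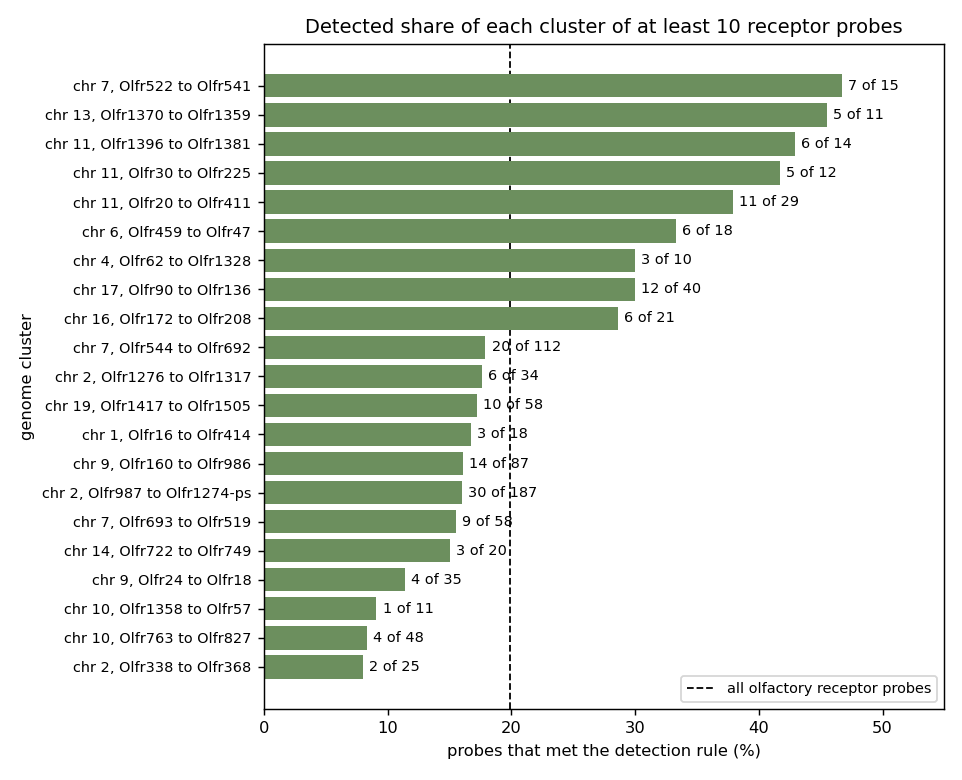
Share of olfactory receptor probes that met the detection rule (x axis, percent) in each genome cluster of at least 10 probes (y axis, named by chromosome and by the first and last gene), with the number of detected probes of all probes beside each bar. The dashed line is the 19.9% of all olfactory receptor probes, and the bars range from 8% to 46.7%.

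Class I and class II receptors, told apart by their MOR subfamily number among the RefSeq synonyms, were detected at similar shares. Of 110 class I probes 20 were detected (18.2%), and of 835 class II probes 169 (20.2%). All class I probes with a subfamily number lie on chromosome 7. Over 81 MOR subfamilies with at least 4 probes, 27 had no detected probe and in 5 most of the probes were detected. Of these 5, MOR218 on chromosome 17 had 7 of 8, MOR255 on chromosome 11 had 4 of 6, MOR183 on chromosome 16 and MOR258 on chromosome 4 had 3 of 5 each, and MOR283 on chromosome 7 had 7 of 12. The large subfamily MOR256 had 16 of 43. RefSeq gene models longer than 1100 bases, which reach beyond a single coding exon, were given for 45 of 190 detected probes (23.7%) and for 135 of 767 other receptor probes (17.6%).

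The cluster on chromosome 17, from Olfr90 to Olfr136, had 12 of its 40 probes detected, 7 of them for MOR218 receptors. The values of these MOR218 receptors were looked at together after they had been seen. Olfr112 read 7.26, 9.55 and 9.65 in Prss55-/- replicates 1 to 3 and 10.31, 10.41 and 10.48 in wt. Olfr113, whose probe lies 10.9 kb away, read 5.46, 7.46 and 7.42 against 7.99, 8.07 and 8.23. In both, the 3 Prss55-/- arrays were below the 3 wt arrays, and Prss55-/- replicate 1 lay far below the other two. Olfr126 read 8.66, 9.24 and 9.37 against 9.66, 9.69 and 9.68, Olfr127 read 9.16, 10.06 and 10.15 against 10.47, 10.45 and 10.61, and Olfr761 read 8.33, 9.18 and 9.24 against 9.75, 9.81 and 9.82. In these 5 receptors, over 389 kb, Prss55-/- replicate 1 was lowest, the other Prss55-/- mice were next and the wt mice highest. The wt arrays were close together, with an SD of 0.0125 for Olfr126 and of at most 0.121 for the 5 probes, whereas the SD of the Prss55-/- arrays was from 0.38 to 1.35.

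The differences were -1.58 for Olfr112, -1.31 for Olfr113, -0.59 for Olfr126, -0.72 for Olfr127 and -0.88 for Olfr761. With all 6 arrays none of these passed the adjusted threshold (limma adjusted p = 0.252, 0.26, 0.171, 0.221 and 0.139). When Prss55-/- replicate 1 was left out the differences were smaller, at -0.80, -0.65, -0.37, -0.40 and -0.58. The limma adjusted p was then 0.0114 for Olfr112, 0.0278 for Olfr113, 0.0518 for Olfr126, 0.0601 for Olfr127 and 0.0126 for Olfr761. The calls on these receptors thus depended on whether Prss55-/- replicate 1 was included. Over all probes tested, 346 passed with all arrays and 855 without that array, so the added calls are not particular to these receptors. The differences were larger with it, but Prss55-/- replicates 2 and 3 also lay below every wt array.

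Their neighbours did not share the full pattern. Olfr114, an MOR218 receptor that lies between Olfr113 and Olfr126, read 10.48, 10.82 and 10.75 against 10.88, 10.77 and 10.88 (difference -0.16, limma adjusted p = 0.426). Prss55-/- replicate 1 was lowest for Olfr114 too, but the genotypes overlapped. Olfr128, also of MOR218, read higher on every Prss55-/- array, at 8.29, 8.18 and 8.08 against 7.71, 7.78 and 8.02 (difference 0.35, limma adjusted p = 0.143). Olfr125, the remaining MOR218 receptor, was above background on no array. Olfr124, of MOR256, read 9.46 to 9.62 on all 6 arrays, and H2-M2, an MHC class I gene 82.4 kb from Olfr112, read 9.73 to 9.84. Within 1 Mb of Olfr112, none of the 17 probes of other genes that were tested passed the limma adjusted threshold. Among the marker lists, Rnase10, an epididymal gene, was also lower in the Prss55-/- arrays, at 7.29, 4.64 and 5.44 against 8.60, 8.80 and 8.71 (limma adjusted p = 0.0925). Among the Prss55-/- mice replicate 1 was here the highest. The part of tissue makeup, or of the mixed strain background, in the chromosome 17 pattern was not tested.

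**Figure D3:**
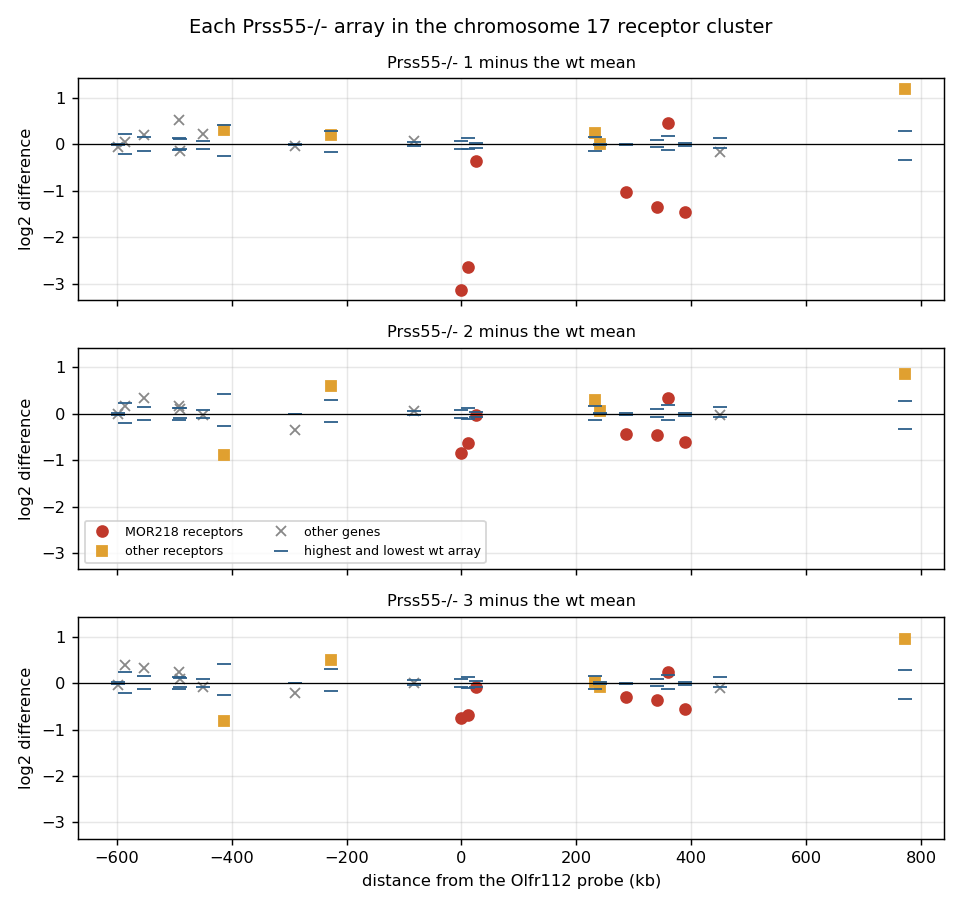
Log2 signal of each Prss55-/- array minus the wt mean (y axis) for all tested probes in the chromosome 17 receptor cluster, by distance from the Olfr112 probe in kb (x axis), with a panel for each Prss55-/- mouse. Blue dashes give the highest and lowest wt array, red circles are MOR218 receptors, yellow squares other receptors and grey crosses other genes. The MOR218 receptors Olfr112, Olfr113, Olfr126, Olfr127 and Olfr761 lie below the wt arrays in all panels and lowest in replicate 1.

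Between the genotypes, 3 of the 191 receptor probes passed an adjusted p of 0.05 in limma (1.57%), beside 1.21% of all 28606 probes tested, and all 3 were higher in Prss55-/- testis. Only Olfr508 of these was detected in both genotypes, and 39 probes had entered the set through Prss55-/- alone against 9 through wt alone, so nothing is read from this count or its direction. Olfr508, on chromosome 7, was well above background on all 6 arrays. It read 6.79, 6.90 and 6.66 in Prss55-/- and 6.08, 5.92 and 6.19 in wt testis, without overlap. The difference was 0.72 (SE 0.0943, limma adjusted p = 0.0335), a 1.64-fold higher signal. It was the 1 call among the 143 receptor probes above background on all arrays (0.699%), beside 1.13% of all 27495 such probes. When these probes were fitted alone, 391 of them passed, among them Olfr508, Olfr643 and Olfr1364 (limma adjusted p = 0.0285, 0.0451 and 0.0451), all higher in Prss55-/-. Olfr508 had no other detected receptor within 1 Mb, and none of the 22 tested probes of other genes there passed the limma adjusted threshold.

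Olfr1170 and Olfr1184, both in the large cluster on chromosome 2, were above background in the Prss55-/- testes alone, and for such probes the rule itself favours a difference. Olfr1170 read 5.41, 5.47 and 5.40 in Prss55-/- and 4.68, 4.90 and 4.82 in wt. Olfr1184 read 5.56, 5.77 and 6.56 in Prss55-/- and 3.41, 4.03 and 2.97 in wt. Since the wt signals were not well above background, the differences are given as bounds on the quantile-normalized signals, at least 1.29-fold for Olfr1170 and at least 1.87-fold for Olfr1184. The measured differences were 0.62 (limma adjusted p = 0.019) and 2.49 (limma adjusted p = 0.0396). With normexp background correction, which added an offset of 50 and so compresses signals this low, they were 0.25 and 0.60, below these bounds, and that of Olfr508 was 0.37. Under that correction none of these 3 passed (limma adjusted p = 0.0762, 0.0683 and 0.0727).

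Leaving out 1 array at a time removed these calls in most cases. Olfr508 passed without Prss55-/- replicate 1 or wt replicate 3 but not without any of the others, where its limma adjusted p was between 0.0873 and 0.133. Olfr1184 passed only without Prss55-/- replicate 1, and its limma adjusted p was otherwise between 0.0619 and 0.161. Olfr1170 failed without Prss55-/- replicate 2 or 3 or wt replicate 1, at a limma adjusted p of 0.103, 0.0991 and 0.0596. The size of the differences changed little, from 0.65 to 0.78 for Olfr508, from 2.19 to 2.77 for Olfr1184 and from 0.56 to 0.67 for Olfr1170. The number of receptor probes that passed was 9 without Prss55-/- replicate 1 and 6 without wt replicate 3, and between 0 and 2 without any 1 of the other four arrays. The count over all probes moved as well. It was 346 with all arrays, 855 without Prss55-/- replicate 1, 377 without wt replicate 3 and 38 to 127 without the others.

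With a 2-fold difference and an unadjusted p below 0.05 as the rule, 6 receptor probes passed, beside 0.608% of all probes. These were Olfr1184 and Olfr136 higher in Prss55-/- testis and Olfr112, Olfr113, Olfr55 and Olfr1362 lower. Olfr1184, Olfr136, Olfr55 and Olfr1362 entered the set only through the genotype where they are high, so nothing is read from this count and the p values of these 4 are a description. Olfr136, at the end of the chromosome 17 cluster, read 6.25, 5.91 and 6.00 against 5.09, 4.71 and 5.33 (difference 1.01, limma adjusted p = 0.0595), and 1 wt array was above background. It passed with 75th percentile scaling and without wt replicate 3, at differences of 1.11 and 1.15 (limma adjusted p = 0.0399 and 0.0481), and with normexp correction at a smaller difference of 0.42 (limma adjusted p = 0.0331). Olfr1362 on chromosome 13 was detected in wt alone and read 4.27, 5.19 and 4.39 against 5.93, 5.81 and 6.28. On these quantile-normalized signals it was at least 2.1-fold lower in Prss55-/- (limma adjusted p = 0.0726). It passed with normexp correction at a difference of only -0.47, less than that bound (limma adjusted p = 0.0428), and without Prss55-/- replicate 2 at -1.68 (limma adjusted p = 0.04). The paper lists Olfr1362 among the changed genes that were lower in Prss55-/- testis and also in Prss37-/- testis. It reports a qRT-PCR change of this gene below its own fold cut-off in both. The bound therefore holds for these array signals alone. Olfr55, on chromosome 17 outside the MOR218 cluster, read 3.83, 5.03 and 3.33 against 5.59, 5.29 and 6.00, at least 1.61-fold lower (limma adjusted p = 0.144). In the cluster of Olfr1362 another MOR256 receptor, Olfr1364, went the other way, at 6.02, 6.13 and 5.99 against 5.43, 5.61 and 5.65 (difference 0.48, limma adjusted p = 0.0517). It was looked at after its values were seen. The 2-fold rule called 2 receptors, Olfr112 and Olfr113, when probes above background on all 6 arrays were tested alone, and 1 under normexp correction.

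**Figure D4:**
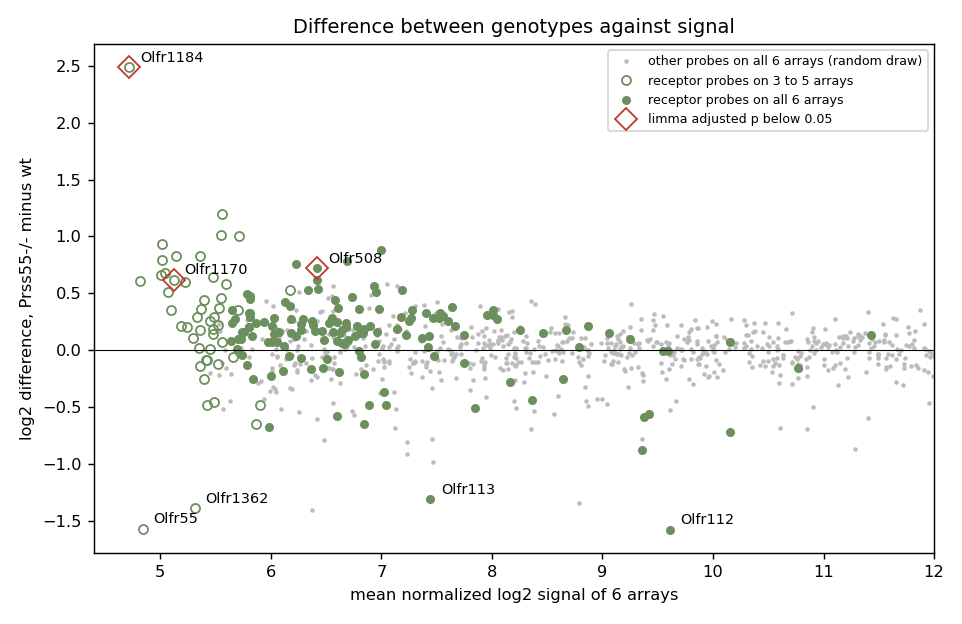
Log2 difference between Prss55-/- and wt testis (y axis) against the mean normalized log2 signal of the 6 arrays (x axis) for the 191 olfactory receptor probes (green, filled where above background on all 6 arrays) and for 900 other probes drawn at random (grey). Red diamonds mark Olfr1184, Olfr1170 and Olfr508, the 3 with a limma adjusted p below 0.05. Most receptor probes with signals under 8 lie slightly above the zero line.

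As a group the receptor probes read slightly higher in Prss55-/- testis, but this depended on which wt mice were compared. Of the 143 probes above background on all arrays, 108 had a higher Prss55-/- mean (75.5%) and the median difference was 0.16, beside 50.3% and 0.00 over all 27495 such probes. The median deviation of these 143 probes from their own 6-array mean was 0.07, 0.14 and 0.04 in Prss55-/- replicates 1 to 3. It was -0.20 and -0.11 in wt replicates 1 and 2, which share slide 3, and 0.09 in wt replicate 3 on slide 2. The wt replicate 3 thus lay within the range of the Prss55-/- mice. Against wt replicates 1 and 2, 111 of the 143 probes were higher in Prss55-/- (median 0.23), and against wt replicate 3 only 64 were (median -0.03). The medians over all probes were 0.01 or closer to 0 on every array. Vomeronasal receptors of the Vmn1r family, with 22 of 114 probes detected, had median deviations of 0.07, 0.17 and 0.06 in Prss55-/- and -0.14, -0.09 and 0.04 in wt. These are over all 22 probes, of which 19 were above background on all 6 arrays, so the set is not restricted as the 143 are. Here too wt replicates 1 and 2 were lowest, but wt replicate 3 lay just below the Prss55-/- mice. Whether the difference between the wt mice belongs to the mice or to the slides cannot be told apart.

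**Figure D5:**
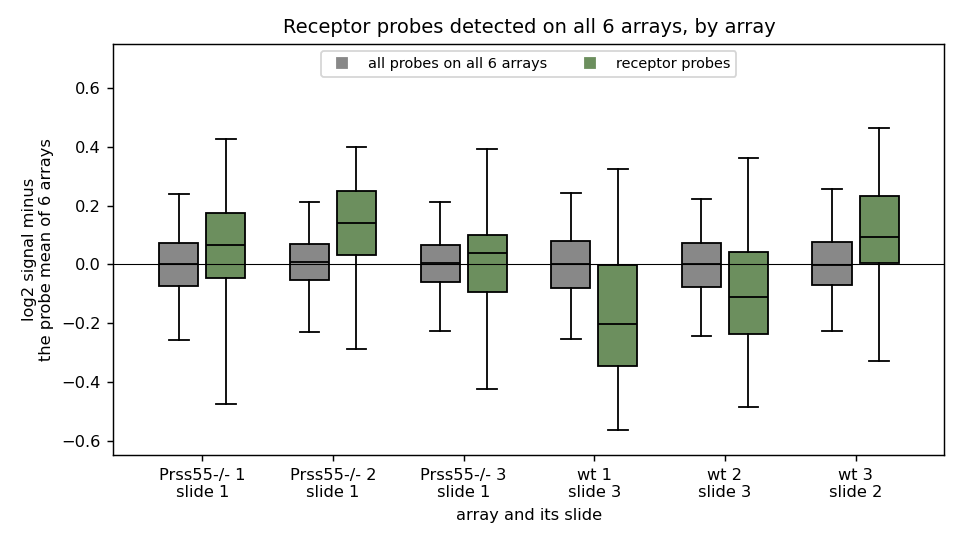
Log2 signal minus the mean of the 6 arrays for each probe (y axis), by array and slide (x axis), for the 143 olfactory receptor probes above background on all 6 arrays (green) and for all 27495 such probes (grey). Boxes give the quartiles and median, and whiskers the 5th and 95th percentiles. The receptor medians are -0.20 and -0.11 in wt replicates 1 and 2 and 0.09 in wt replicate 3, which lies among the Prss55-/- arrays.

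The shift was seen among dim receptors. Over receptor probes above background on all arrays, the median difference was 0.18 for 26 probes with a mean signal from 5 to under 6, 0.17 for 67 probes from 6 to under 7 and 0.26 for 27 probes from 7 to under 8. Over all probes in these ranges it was -0.03, 0.00 and 0.00. For the 23 receptor probes at 8 or more it was 0.03. Probe by probe, the counts lay near the shares over all probes, so nothing is read from them. An unadjusted limma p below 0.05 was reached by 31 of the 143 (21.7%), beside 18.7% of all such probes. The genotypes did not overlap for 16 receptor probes that were higher in Prss55-/- (11.2%) and for 13 that were lower (9.09%), beside 13.4% and 12.8% of all probes.

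Receptor signals varied between mice of a genotype. The median SD within genotypes was 0.216 for receptor probes and 0.187 for all probes at a mean signal from 5 to under 6, 0.229 and 0.164 from 6 to under 7, and 0.211 and 0.125 from 7 to under 8. Over all 27495 probes, at any signal, the 99th percentile of this SD was 0.525. Since dim probes spread more, nothing is read from the count of 8 of the 143 receptor probes above it. Besides Olfr112 and Olfr113 these were receptors in which a single mouse often stood apart. Olfr569 read 7.36 in wt replicate 3 and 8.91 to 9.51 on the other arrays. Olfr868 read 8.11 in wt replicate 1 and 6.10 to 6.43 on the others. Olfr434 read 7.50 in Prss55-/- replicate 2 and 5.57 to 6.27 on the others, and Olfr12 read 7.94 in Prss55-/- replicate 3 and 5.91 to 6.88 on the others. Olfr635 ranged from 6.97 to 8.05 in Prss55-/- and from 5.75 to 7.24 in wt, and Olfr24 from 6.88 to 7.39 in Prss55-/- and from 5.98 to 7.52 in wt.

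The molecules that act with olfactory receptors in the nose were partly present. Of 20 listed gene names of olfactory signalling, of which Adrbk2 and Grk3 name the same gene, 18 had probes and 16 were tested, and none of their 34 tested probes passed the limma adjusted threshold (lowest adjusted p = 0.0544, for the phosphodiesterase Pde4a). The G protein subunit Gnal read 8.76 to 9.01 over the arrays at the only 1 of its 5 probes that met the rule. The channel subunits Cngb1 and Cnga2 read 11.08 to 11.32 and 6.52 to 6.93, and the G protein gamma subunit Gng13 read 8.17 to 8.57. Adcy3 was above background on 4 arrays for its brighter probe and did not meet the rule. The phosphodiesterase Pde1c, at the brightest of its 6 tested probes, read 13.18 in Prss55-/- replicate 1 and 13.77 to 13.79 on the other arrays. The same mouse was low as for the MOR218 receptors, but Pde1c was picked out with their values known. Of 14 genes for receptor trafficking and receptor choice, 12 were tested and none passed the limma adjusted threshold (lowest adjusted p = 0.172). The trafficking protein Rtp1 was above background on 2 arrays and Rtp2 on none, while Reep1 read 13.27 to 13.47 and the transcription factor Lhx2 read 11.52 to 11.70. Ebf2 and Emx2, transcription factors of the olfactory lineage, were lowest in Prss55-/- replicate 1. They too were picked out with the MOR218 values known, and the share of all probes that were lowest in that mouse is not given here, so no link is read from them. Emx2 read 7.23 there and 7.78 to 8.02 on the other arrays, and Ebf2 read 5.91 there and up to 7.27 on the others. Others on the list did not follow, since Ebf1 was highest in that mouse, at 6.99 against 6.75 to 6.89, and Ebf3 and Lhx2 were not low there.

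Some markers of the nose itself were detected and some were not. Among 7 genes that mark olfactory sensory neurons, Gng13 and Cnga2 were above background on all 6 arrays, as given above. Omp read 5.14 to 5.83 and was above background on 5 arrays, Gap43 was above background on none and Stoml3 and Ncam2 on 1 each. Of 4 genes of the supporting cells of the olfactory epithelium, Cyp2g1, Cyp1a2 and Ermn were above background on no array, and Sult1c1 read 7.33 to 7.66 on all 6. The germ cell markers were above background on all 6 arrays, with a summed signal for 5 genes of elongating spermatids of 20.61 to 20.69 in Prss55-/- and 20.69 to 20.74 in wt. The round spermatid list of 5 genes read 17.41 to 17.54 and 17.32 to 17.39, higher in Prss55-/- without overlap. Of the epididymal markers Lcn5, Crisp1 and Adam7 were above background on no array, and the summed signal of the 5 listed genes was 6.88 to 8.09 in Prss55-/- and 8.91 to 9.08 in wt, carried by Rnase10. For the 4 Leydig cell genes on the array it was 14.37 to 15.10 and 14.85 to 15.18. Summed signals that were lower in Prss55-/- without overlap were also found for macrophage genes, at 10.91 to 11.05 against 11.07 to 11.18, and for peritubular and vascular genes, at 13.63 to 13.73 against 13.75 to 13.82. The margins of the macrophage and the peritubular and vascular lists were small. Summed signals overlapped for spermatogonia, spermatocytes, Sertoli cells and blood, at 13.79 to 13.80 and 13.77 to 13.82 for Sertoli cells. Among single probes above background on all 6 arrays, 12.8% were lower and 13.4% higher in Prss55-/- without overlap. The like share for summed lists was not worked out. No marker gene passed the limma adjusted threshold, and the part of these marker differences in the receptor signals was not tested.

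Other chemoreceptor families are smaller, and their detected shares lay on both sides of the 19.9% of olfactory receptor probes. The rule was met by 15 of 28 Vmn2r probes (53.6%), 2 of 3 Tas1r (66.7%), 1 of 4 Taar (25%), 22 of 114 Vmn1r (19.3%), 1 of 13 Tas2r (7.69%) and 0 of 5 Fpr probes. In these families 2 vomeronasal receptors of the Vmn2r family passed the adjusted threshold, in opposite directions. Vmn2r29 read 7.66, 8.19 and 8.23 in Prss55-/- and 6.19, 6.47 and 6.49 in wt (difference 1.64, limma adjusted p = 0.0157). Vmn2r90 read 4.37, 4.50 and 4.28 against 5.32, 5.39 and 5.27, at least 1.31-fold lower in Prss55-/- (limma adjusted p = 0.00721). It was detected in wt alone and so was tested only through the genotype where it is high. The median difference was 0.18 over the 22 Vmn1r probes tested and 0.02 over the 15 Vmn2r probes, of which 19 and 12 were above background on all 6 arrays.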

How the data were processed

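For each array the authors deposited its scanner file, from Agilent Feature Extraction 10.7 per the labels, in which the processed signal is a linear intensity corrected for background within the array. A matrix of log2 values was deposited as well, which correlated with the scanner values of its own array at 0.9997 or more and was used as an alternative. The header of the scanner files names build mm9. Control spots and spots flagged as outliers were left out, signals below 1 were set to 1, and log2 signals were quantile-normalized and averaged per probe. The 28606 probes that met the detection rule were fitted in limma 3.58.1 under R 4.3.3 (lmFit and eBayes, two-sided, Benjamini-Hochberg over all of them). Probes stood for genes one by one, and no gene average was made. Where a genotype had no array well above background, its signal was set to the lowest such signal of each array, or left where higher, and a bound was given. MOR subfamilies came from synonyms in RefSeq (GRCm38.p6), which matched 957 of 962 receptor probes and was used for names and gene model lengths only. Tables and plots were made with Python 3.11.15.

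The members, the pathway and marker lists and the tests were chosen with earlier results of these data known. Named were the probes past either threshold, the 10 brightest, the 5 with the largest difference above background on all arrays, Olfr1184, Olfr136, Olfr1362 and Olfr16, and receptors with 2 probes. Tested on simulated data of this design with 200 changed probes, the fit recovered 170 of them and made 8 false calls. Of those recovered, 95 had been changed 4-fold and 75 had been changed 2-fold. These counts are over 28604 simulated probes, and recovery among receptor probes was not worked out. The median SD within genotypes was 0.209 for receptor probes and 0.0893 for all probes. The simulated recovery therefore cannot be taken as that for receptors, whose spread was larger. Recovery of differences under 2-fold was not tested, and 151 of the 191 receptor probes had a log2 difference within 0.5. The labels do not say that the mice came from separate litters, so the p values measure the spread between these mice. The number of arrays limits the precision. Other assays of the study were not analysed here.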

Additional observations from a re-analysis of the deposited data

How the results depend on the processing

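The count of receptor probes past the adjusted threshold was 3 in limma, with 346 over all probes. It was 6 (357 over all probes) with 75th percentile scaling, 0 (13) with the replicate block, 0 (140) without the filter, and 0 to 9 (38 to 855) with 1 array left out. With the methods' plain t-test in place of limma it was 0 (87). The count past an unadjusted p of 0.05 and 2-fold was 6, with 174 over all probes. It was 1 (69) with normexp, 21 (370) without the filter, 2 (94) for probes above background on all 6 arrays and 3 to 10 (140 to 247) with 1 array left out. The median difference of the 191 receptor probes was 0.18. The filter itself favours a positive value, since 39 probes entered through Prss55-/- alone and 9 through wt alone. The median was 0.16 for probes above background on all 6 arrays and 0.00 without the filter. With 1 array left out it was 0.11 to 0.26. Against wt replicate 3 alone, a comparison added after the data were seen, the median of the 191 probes was -0.02. The Prss55 difference of -0.90 kept its direction, with a limma adjusted p of 0.101 with the replicate block and a plain t-test adjusted p of 0.0713. With 1 array left out it was -0.96 to -0.84, with a limma adjusted p of up to 0.0698. Detection on at least 1 array gave 328 probes and the less strict flag 433, against 191. Among 247 values of the 19 named probes under the alternatives, 4 changed sign, all near 0: Olfr744 from -0.01 to 0.01 with normexp, and with 1 array left out Olfr744 ranged from -0.10 to 0.06 and Olfr124 from -0.05 to 0.03. A further 21 lost and 9 gained a call. The cause of these changes was not tested. Mice with the same number did not deviate together (correlations of their deviations -0.05, -0.02 and -0.11), so the block rests on numbers alone.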

Other observations

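Among the 771 olfactory receptor probes that did not meet the detection rule, 28 were well above background on 1 array and at least 2 log2 units above every other array. Olfr922 read 7.13 in wt replicate 2 and 2.70 to 2.75 elsewhere, Olfr769 read 6.99 in wt replicate 1 and 2.68 to 2.82 elsewhere, and Olfr1133 read 6.73 in Prss55-/- replicate 3 and 2.71 to 2.78 elsewhere. By array there were 5, 4 and 10 such probes in Prss55-/- replicates 1 to 3 and 7, 2 and 0 in wt replicates 1 to 3. Each of these values rests on a single array, and whether it came from the mouse or from the spot was not tested.

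Neighbouring MOR256 receptors on chromosome 11 were both lower in Prss55-/- testis and were picked out after their values were seen. Olfr1383 read 8.02, 8.22 and 8.19 against 8.61, 8.46 and 8.67 (limma adjusted p = 0.0715), and Olfr1384 read 6.71, 6.98 and 6.81 against 7.27, 7.06 and 7.28 (limma adjusted p = 0.119). The genotypes did not overlap for either, as for 12.8% of all probes above background on all 6 arrays that were lower, and neither passed the threshold. Other MOR256 probes of this cluster did not follow. Olfr1381 read 6.62, 6.88 and 6.51 against 6.50, 6.40 and 6.94 (difference 0.06), and the differences at the Olfr1393 probes were 0.15 and 0.03.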
